A study of Mus musculus with 4 samples.

Results

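The nuclear-encoded subunits of the mitochondrial respiratory chain were taken as every gene whose name on the array begins with Ndufa, Ndufb, Ndufc, Ndufs or Ndufv, with Uqcr, with Cox4 to Cox8, or with Atp5, pseudogenes left out. The rule found 134 of 56605 probes and 87 of 36994 genes and transcripts. By name, 38 belong to complex I, 7 are complex I assembly factors, 8 belong to complex III, 17 to complex IV and 17 to complex V. RNA came from RAW264.7, a mouse macrophage line, and was hybridised to 4 one-colour Agilent arrays. The groups were knockout cells with lipopolysaccharide (LPS), untreated knockout cells, wild-type cells with LPS and untreated wild-type cells, with 1 array each. Knockout cells are labelled Mfp2-/-, which the series equates with loss of Hsd17b4, the multifunctional enzyme of peroxisomal fatty acid oxidation, and LPS is a molecule of the outer membrane of Gram-negative bacteria that macrophages sense. The sources used here do not give the LPS dose or duration, how the knockout was made or whether it is 1 clone.

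Each group being a single array, differences between arrays come without replicates and without p-values. The 4 arrays lay on 1 slide, each at its own position, so position and group cannot be told apart. The share of spots well above background was 47.4% to 49.7%, and 0 were saturated. Levels are log2 processed signal minus the 75th percentile of the array, and differences are log2 differences of those levels. Repeat spots of a probe gave a difference a technical SD of 0.130 for LPS in knockout, 0.077 for LPS in wild type, 0.098 for genotype without LPS and 0.115 for genotype with LPS. This SD covers error within an array and not the spread between cultures. Of the macrophage markers, 8 of 9 were well above background on every array (Mrc1 was not), against 0 of 3 muscle and 0 of 4 fibroblast markers on any array. Of the T cell markers 1 or 2 of 3 were above background on an array, of the B cell markers 0 or 1 of 3 and of the epithelial markers 0 or 1 of 4; their part in the results was not tested. One probe checks the label: Hsd17b4 had levels of 1.39 in knockout with LPS and 2.17 in untreated knockout, against 2.60 in wild type with LPS and 3.06 in untreated wild type. It was lower in knockout and not lost. Tnf, Il1b and Nos2, inflammatory genes that LPS induces in macrophages, passed 2-fold higher with LPS in both genotypes.

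Complex I takes electrons from NADH, complex III passes them from ubiquinol to cytochrome c, complex IV hands them to oxygen, and complex V, the ATP synthase, uses the proton gradient they build. Nearly all their subunits are encoded in the nucleus, and many of these genes share the regulators NRF1, GABP and YY1. Macrophages activated with LPS are known to lean on glycolysis for ATP and to redirect their respiratory chain, which is why its transcripts are of interest here.

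The finding by gene rests on a few probes, of which those of Cox4i1 and Cox6a2 are shown because the largest genotype differences came from them. Cox4i1 is the subunit IV isoform of most tissues, and its probe A_51_P165435 lies on the plus strand of mm9 at chr8:123197924-123197983. Cox6a2 is the subunit VIa isoform of heart and skeletal muscle, and its probe A_51_P509997 lies on the minus strand of mm9 at chr7:135349160-135349219. Sequences are 5′ to 3′, with no part in capitals.
Cox4i1 probe: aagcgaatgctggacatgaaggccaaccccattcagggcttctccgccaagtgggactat
Cox6a2 probe: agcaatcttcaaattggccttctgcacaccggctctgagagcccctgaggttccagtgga

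Promoters are shown for 3 genes whose LPS differences were among the largest and whose window held a motif of those regulators. Picked for both, they do not tie a motif to an LPS difference, and such a link was not tested. Other genes with an NRF1 match ranged widely. Cox6a1 differed by -0.11 in knockout and 0.02 in wild type, and Ndufa11 by -0.58 and -0.39. The motifs searched on both strands were GCGCATGCG for NRF1, CCGGAAG for the ETS family to which GABP belongs and AAGATGGCG for YY1. Promoters from RefSeq on GRCm38.p6, 300 bases each around the gene start, were found for 72 of the 87 genes. The windows are chr2:36049289-36049588 on the minus strand for Ndufa8, chr10:80249199-80249498 on the plus strand for Ndufs7 and chr4:24897833-24898132 on the plus strand for Ndufaf4. Capitals mark the motif, which is NRF1 in Ndufa8 and Ndufaf4 and YY1 in Ndufs7. The capitals of Ndufaf4 hold the motif on both strands, overlapping.
Ndufa8 promoter: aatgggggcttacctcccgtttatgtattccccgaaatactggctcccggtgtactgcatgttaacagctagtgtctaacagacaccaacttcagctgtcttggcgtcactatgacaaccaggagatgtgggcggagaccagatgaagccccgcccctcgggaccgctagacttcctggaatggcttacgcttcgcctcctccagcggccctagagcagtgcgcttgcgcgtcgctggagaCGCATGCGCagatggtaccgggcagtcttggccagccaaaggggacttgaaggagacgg
Ndufs7 promoter: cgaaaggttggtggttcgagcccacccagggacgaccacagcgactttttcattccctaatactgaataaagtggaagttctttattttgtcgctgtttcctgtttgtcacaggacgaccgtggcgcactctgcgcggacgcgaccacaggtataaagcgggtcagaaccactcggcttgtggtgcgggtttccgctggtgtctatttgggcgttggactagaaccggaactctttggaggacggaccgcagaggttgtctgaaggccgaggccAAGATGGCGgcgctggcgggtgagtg
Ndufaf4 promoter: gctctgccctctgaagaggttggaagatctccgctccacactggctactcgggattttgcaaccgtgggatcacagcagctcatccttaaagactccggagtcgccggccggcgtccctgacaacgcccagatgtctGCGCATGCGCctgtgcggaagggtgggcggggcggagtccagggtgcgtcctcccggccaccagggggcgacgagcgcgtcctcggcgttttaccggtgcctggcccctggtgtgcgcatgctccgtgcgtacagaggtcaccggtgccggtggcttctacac

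The NRF1 motif stood in 10 of 78 promoters of the respiratory chain genes (12.8%), against 575 of 32851 promoters of the table (1.8%). The ETS motif stood in 15 of 78 (19.2%), against 8.9% of all promoters, and the YY1 motif in 9 of 78 (11.5%), against 1.4%. The 78 promoters belong to 72 genes. The YY1 matches are in 8 genes, as Atp5sl has the same site in overlapping windows. No gene of the set had all 3 kinds, 5 had a pair of kinds, 23 had 1 kind and 44 had no match. NRF1 matches were in 2 of 5 promoters of complex III and 2 of 6 of the assembly factors. They were in 3 of 20 of complex V, 1 of 12 of complex IV and 2 of 35 of complex I. YY1 matches were in 5 of 35 promoters of complex I and 4 of 20 of complex V (3 of 16 genes). There were 0 of 12 in complex IV, 0 of 5 in complex III and 0 of 6 in the assembly factors. A match describes the letters of the window and does not show a bound site.

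**Figure D1:**
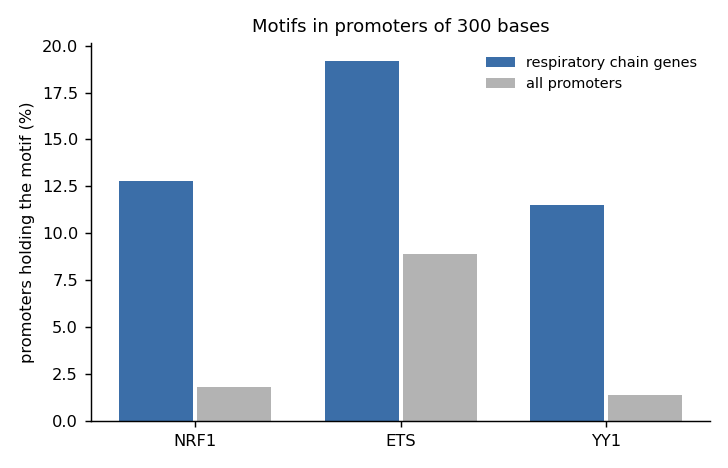
Share of 300-base RefSeq promoters (percent, y axis) that hold the NRF1, ETS or YY1 motif on either strand (x axis), in 78 promoters of the respiratory chain genes (blue) and in all 32851 promoters of the table (grey). The blue bars stand at 12.8, 19.2 and 11.5%, the grey bars at 1.8, 8.9 and 1.4%.

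Of the 87 genes, 83 were well above background on all 4 arrays and 4 on none. The 4 were Ndufa4l2, a paralog of Ndufa4 induced by hypoxia, Cox7b2 and Cox8c, isoforms known from testis, and Cox8b, the heart and muscle isoform of subunit VIII. The isoforms of other tissues that were measured in this line were Cox4i2, Cox6a2, Cox6b2 and Cox7a1. On the level scale Cox6b2 lay between -3.26 and -2.54 on the 4 arrays, and Cox4i2 between -1.37 and -0.98. All other counts below are over the 83 genes, and a gene was called when a difference reached 2-fold.

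**Figure D2:**
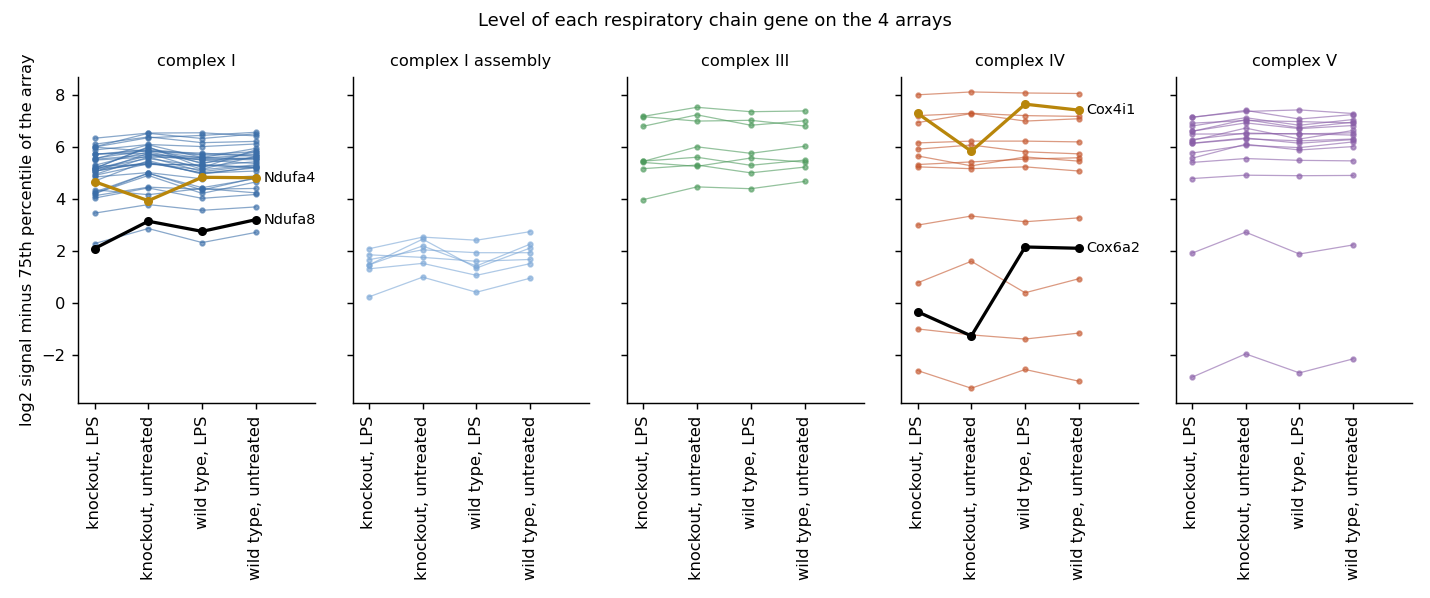
Level of each of the 83 measured genes (log2 signal minus the 75th percentile of the array, y axis) on the 4 arrays (x axis), with 1 line a gene and 1 panel a complex. Black lines are Cox6a2 and Ndufa8 and gold lines Cox4i1 and Ndufa4; Cox6a2 stood at -0.32 and -1.25 on the knockout arrays, against 2.17 and 2.12 on the wild-type arrays.

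LPS was set against no treatment first, in each genotype. In knockout cells most respiratory chain transcripts were somewhat lower with LPS: the median over the 83 genes was -0.30, with 71 genes below 0 (85.5%), against a median of 0.04 over all genes, 47.7% of which were below 0. In wild-type cells the median was -0.12, with 58 genes below 0 (69.9%), against 0.03 over all genes, 47.4% below 0. Few differences were large. At 2-fold 1 gene was lower and 1 higher in knockout, where 12.4% of all genes were called lower and 11.1% higher. In wild type 0 were called in either direction, where 8.39% of all genes were called lower and 9.97% higher. At 1.5-fold 15 of 83 genes were lower and 4 higher in knockout, against 22.1% and 20.5% of all genes. In wild type 3 were lower and 0 higher at 1.5-fold, against 17.0% and 18.0% of all genes. Most genes of the set were thus shifted by a small amount, and calls were no more frequent than over all genes.

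The counts depend on how the arrays are scaled. Centring on spike-in probes moved the median of all genes to -0.20 in knockout and -0.19 in wild type, and median centring moved it to 0.18 in knockout. Relative to the median of all genes, the respiratory chain median was -0.34 in knockout and -0.15 in wild type by the 75th percentile. Median and spike-in centring give the same values by construction, since each shifts an array by a constant. The relative median was -0.34 in knockout and -0.19 in wild type with normexp background correction. After quantile normalization it was -0.49 in knockout and -0.29 in wild type. In knockout the split of 1 higher and 1 lower became 1 higher and 9 lower with spike-in centring, 1 higher and 4 lower with quantile normalization and 2 higher and 0 lower with median centring. The shares of all genes called under these other scalings were not counted, so these counts are not read as a result about the set.

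**Figure D3:**
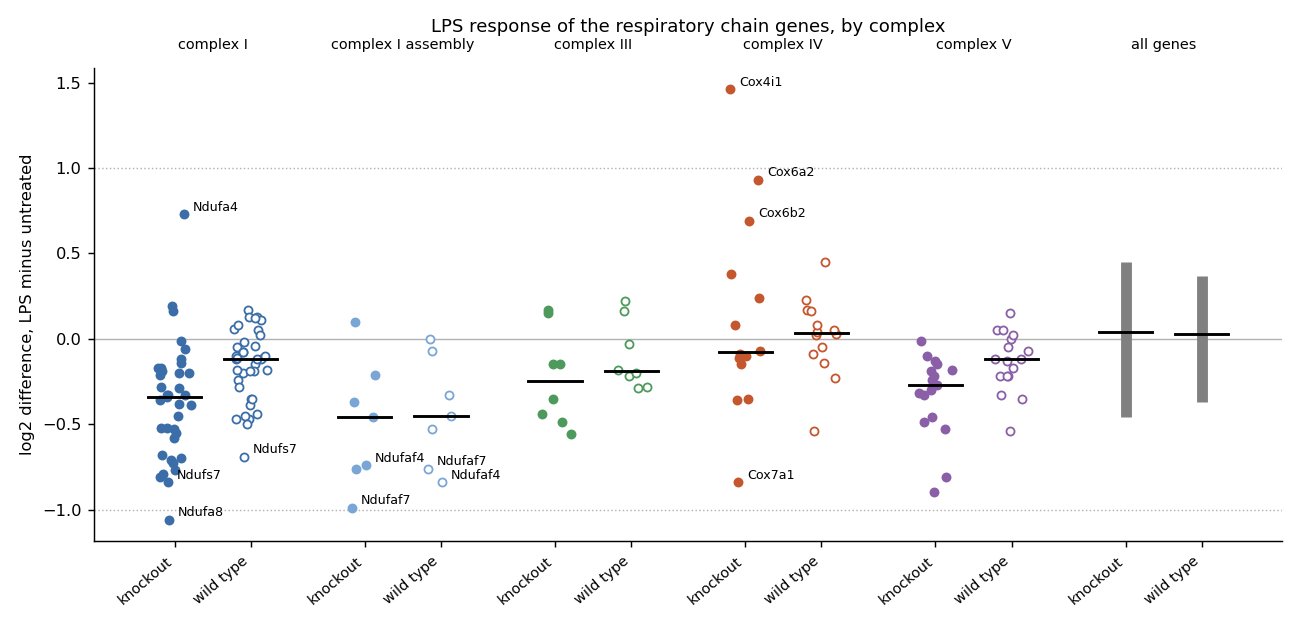
LPS minus untreated (log2 difference, y axis) for each measured gene in knockout (filled points) and wild type (open points), by complex (x axis), with black bars at medians and grey bars from the lower to the upper quartile of all genes. Dotted lines mark 2-fold; medians of complexes I, III and V lie below 0 in both genotypes, as under each other scaling, and Cox4i1 in knockout lies at 1.46.

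Complex I is the largest group of the set. Its median was -0.34 in knockout, with 34 of 37 genes below 0, and -0.12 in wild type, with 28 of 37 below 0. Ndufa8, an accessory subunit of the membrane arm, had levels of 2.11 with LPS and 3.16 untreated in knockout, and 2.77 with LPS and 3.22 untreated in wild type. It was the only gene of the set called lower with LPS, at -1.06 in knockout (48.1% of the untreated signal) and -0.45 in wild type (73.4%). It has 1 probe with 1 spot, and its difference was -0.92 with median centring and -0.93 after subtraction of neighbouring spots, both short of 2-fold.

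The peripheral arm, where NADH is oxidised and ubiquinone reduced, was lower with LPS in both genotypes for all 6 genes of the Q module, which reduces ubiquinone. Ndufs7, the subunit that carries the last iron-sulfur cluster of that module, had levels of 5.19 with LPS and 6.02 untreated in knockout, and 5.22 with LPS and 5.91 untreated in wild type. Its differences were -0.84 in knockout and -0.69 in wild type, similar in size on both pairs of arrays. Ndufa5, an accessory subunit of the same module, differed by -0.81 in knockout and -0.47 in wild type, and a second probe gave -0.82 and -0.53. In the N module, which oxidises NADH, 8 of 10 genes were below 0 in knockout and 7 of 10 in wild type. Its core subunits gave -0.77 in knockout and -0.35 in wild type for Ndufs1 and -0.34 and -0.20 for Ndufv1, which binds the flavin. Ndufv2, which carries an iron-sulfur cluster, gave -0.73 and -0.47.

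Few genes of complex I were higher with LPS in knockout, where 34 of 37 were below 0, against 28 of 37 in wild type. Ndufs4, an N module accessory subunit needed for a stable enzyme, differed by 0.19 in knockout and 0.17 in wild type. Ndufa12 gave 0.16 and 0.13, and Ndufa7 gave -0.01 and 0.13. These signs depend on the scaling, as 36 of 37 genes were below 0 in knockout and 37 of 37 in wild type with spike-in centring. In the membrane arm, which pumps protons, all 20 genes were below 0 in knockout (median -0.39; 17 of 20 with median centring) and 15 of 20 in wild type (median -0.12; 20 of 20 with spike-in centring). Ndufb10 gave -0.71 in knockout and -0.50 in wild type, Ndufb3 -0.70 and -0.44, and Ndufb9 -0.79 and -0.28.

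The assembly factors of complex I had medians of -0.46 in knockout and -0.45 in wild type, with 6 of 7 genes below 0 in each. Ndufaf7, a methyltransferase, had levels of 1.48 with LPS and 2.47 untreated in knockout, and 1.36 with LPS and 2.13 untreated in wild type. Its differences were -0.99 and -0.76, and its second probe gave -0.99 and -0.69. Ndufaf4 had levels of 1.48 with LPS and 2.21 untreated in knockout, and 1.44 with LPS and 2.28 untreated in wild type, giving -0.74 and -0.84. For Ndufaf4 the LPS arrays were lower in both genotypes by like amounts, and knockout and wild type overlapped. Ndufaf3 gave -0.76 and -0.53. Ndufaf5 gave 0.10 and -0.07, but another of its probes above background gave -0.98 and 0.31, so its direction is unsettled.

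Complex III had medians of -0.25 in knockout and -0.19 in wild type, with 6 of 8 genes below 0 in each. The lowest were Uqcr11, a small subunit, at -0.56 in knockout and -0.28 in wild type, and Uqcrfs1, the Rieske iron-sulfur protein, at -0.49 and -0.29. The core proteins were closer to 0, with -0.15 and -0.22 for Uqcrc1 and -0.15 and -0.20 for Uqcrc2. Uqcr10 gave -0.44 and -0.18 and Uqcrh -0.35 and -0.03. Uqcrq at 0.17 and 0.22 and Uqcrb, which helps form the quinone pocket, at 0.15 and 0.16 were above 0 in both genotypes with the probes used. Of the other Uqcrb probes 1 gave 0.11 and 0.04 and another -0.36 and 0.09, so its direction in knockout is unsettled. With spike-in centring or quantile scaling all 8 genes of complex III, Uqcrq and Uqcrb among them, were below 0 in both genotypes.

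Complex V had medians of -0.27 in knockout, with 17 of 17 genes below 0 (14 of 17 with median centring), and -0.12 in wild type, with 13 of 17 below 0. The largest differences were those of Atp5s, now Dmac2l, at -0.90 in knockout and -0.54 in wild type, and Atp5sl, now Dmac2, at -0.81 and -0.35. Dmac2 is known to act in the assembly of complex I. Among the subunits Atp5j2 of the membrane part gave -0.53 and -0.12, although its other probe gave -0.76 and -1.11. Atp5c1, the gamma subunit of the F1 rotor, gave -0.49 and -0.33, and Atp5a1, the F1 alpha subunit, -0.33 and -0.22, although its other probe gave 0.12 and -0.14. Atp5b, the catalytic beta subunit, gave -0.22 in knockout and 0.15 in wild type with the probe used, and 0.07 and 0.06 with another. The 3 genes of the c ring, which encode 1 mature protein, had -0.32 and -0.12 for Atp5g1, -0.27 and -0.17 for Atp5g2 and -0.24 and -0.05 for Atp5g3. Atp5e at -0.01 and 0.05, Atp5l at -0.10 and 0.05 and Atp5d at -0.13 and -0.00 were nearest to 0.

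Complex IV differed from the others in having little shift: its median was -0.08 in knockout, with 8 of 14 genes below 0, and 0.04 in wild type, with 5 of 14 below 0. The sign of these medians changed with the scaling, to 0.05 in knockout with median centring and to -0.19 in wild type with spike-in centring. Of the ubiquitous subunits Cox5a gave -0.36 in knockout and -0.09 in wild type, Cox6b1 -0.35 and -0.14, Cox6c 0.38 and 0.17 and Cox6a1 -0.11 and 0.02. Cox7a2 gave -0.07 and 0.03, Cox7b 0.08 and 0.16 and Cox8a -0.09 and 0.04. Of the isoforms of other tissues, Cox7a1, the heart and muscle form of subunit VIIa, gave -0.84 and -0.54, and Cox6b2, the testis form of subunit VIb, gave 0.69 and 0.45. Cox4i2, the subunit IV isoform induced by low oxygen in lung, gave 0.24 and -0.23. Cox7a2l, which joins complexes III and IV into supercomplexes, gave -0.15 and 0.08.

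Cox4i1 was the only gene of the set called higher with LPS. Its levels were 7.31 with LPS and 5.85 untreated in knockout, and 7.66 with LPS and 7.43 untreated in wild type. The untreated knockout array stood apart from the other 3, so 1 array gives the difference of 1.46 in knockout (2.75-fold), the genotype difference of -1.58 without LPS and the difference of the LPS responses of 1.23. In wild type the LPS difference was 0.23, and -0.03 after quantile normalization. Ndufa4, once listed in complex I and since shown to sit in complex IV, had the same pattern at a smaller size, with levels of 4.68 with LPS and 3.95 untreated in knockout, and 4.85 with LPS and 4.83 untreated in wild type.

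Both genes have 1 probe with 1 spot, and the spots around them were examined. On the untreated knockout array relative to the untreated wild-type array, 11 of 47 spots within 5 rows and columns of Ndufa4 were at least 2-fold lower (23.4%, median -0.45), against 1.68% of spots on the whole array. Within 3 rows and columns 5 of 13 were lower, with a median of -0.80, close to the -0.88 of Ndufa4 itself. With the median of its neighbours within 5 rows and columns subtracted, Ndufa4 differed by -0.43. Around Cox4i1, 3 of 19 spots within 3 rows and columns were 2-fold lower (15.8%), but their median was -0.11, and its difference after subtraction was -1.59. The part of the array surface in the Cox4i1 value was not tested further. Without these genes, 0 genes of the set were called higher with LPS in knockout and the median was -0.32.

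**Figure D4:**
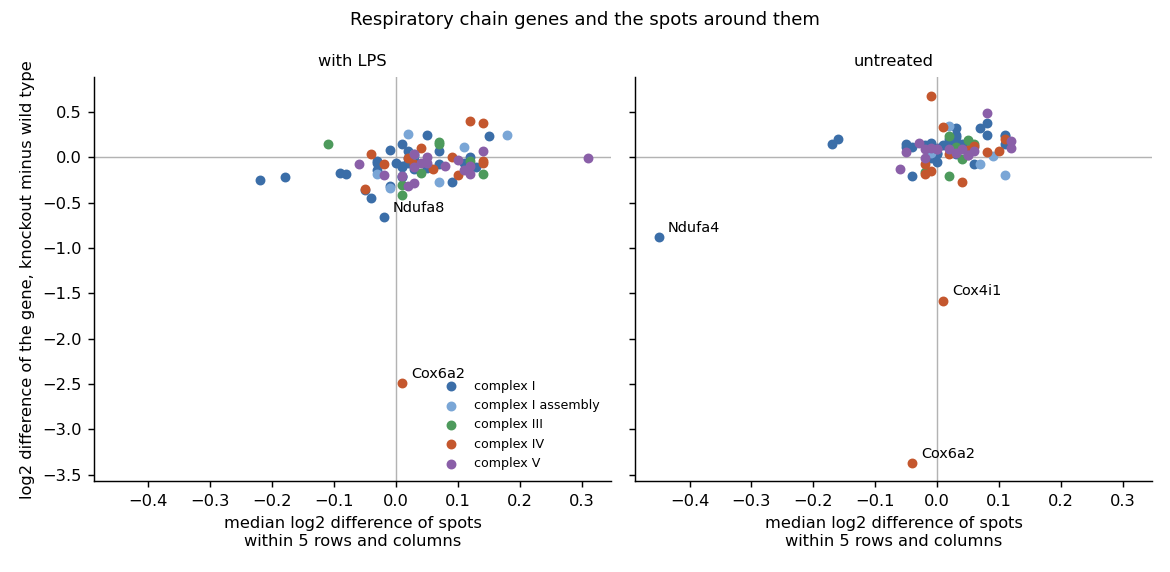
Knockout minus wild type for each gene (log2 difference, y axis) against the median difference of the spots within 5 rows and columns of its probe (x axis), with LPS (left) and untreated (right), coloured by complex. Ndufa4, untreated, lies at -0.88 with neighbours at -0.45, while Cox6a2 lies at -2.49 with LPS and -3.37 untreated with neighbours at 0.01 and -0.04.

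Knockout was then set against wild type. Cox6a2 gave the largest difference of the set. Its levels were -0.32 in knockout with LPS and -1.25 in untreated knockout, against 2.17 in wild type with LPS and 2.12 in untreated wild type. Both knockout arrays were below both wild-type arrays, but with 1 array a group the spread within a group is not known. The signal was 239 in knockout against 2342 in wild type without LPS (10.3-fold lower, difference -3.37), and 372 against 2165 with LPS (5.61-fold lower, difference -2.49). The differences lay between -3.40 and -3.03 without LPS and between -2.50 and -2.27 with LPS under the alternatives tried. Its probe has 1 spot, and 0 of 48 neighbouring spots were 2-fold lower without LPS and 1 of 48 with LPS. The 3 muscle markers Ckm, Myh7 and Actn2 were below background on all 4 arrays. With LPS its level was higher by 0.93 in knockout and by 0.05 in wild type.

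Without LPS 2 genes of the set were called lower in knockout, Cox6a2 and Cox4i1, where 4.04% of all genes were called lower, and 0 were called higher, where 3.01% were. With LPS 1 was called lower, Cox6a2, where 4.64% of all genes were, and 0 higher, where 1.67% were. The other genes lay close to 0. The median was 0.10 without LPS, with 65 of 83 above 0, against 0.02 over all genes. With LPS it was -0.08, with 61 of 83 below 0, against 0.02 over all genes, but 0.13 with median centring, where the median of all genes was 0.22. The median relative to all genes was -0.09 with LPS under both scalings, which by construction give the same value. It was -0.09 with normexp correction and -0.12 with quantile scaling.

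By complex, the differences without LPS had medians of 0.13 for complex I, 0.10 for complex III, 0.05 for complex IV and 0.09 for complex V. Among the highest of their complexes were Cox7a1 at 0.68, from levels of 1.62 in knockout and 0.95 in wild type, Atp5sl at 0.49, Ndufa7 at 0.38, Cox7a2l at 0.33, and Ndufs3 and Ndufv3 at 0.32 each. Of complex III Uqcr10 was at 0.23 and Uqcrq at 0.19. Among other genes below 0 were Cox6b2 at -0.27, Uqcrfs1 at -0.21, Ndufs6 at -0.21 and Uqcrb at -0.16. The probes of Uqcrfs1, Ndufs6, Uqcrb, Ndufaf2, Cox7c and Ndufs4 lie on chromosome 13, and these genes were below 0 without and with LPS. Of the 83 genes of the set, 65 were above 0 without LPS and 61 below 0 with LPS. The part of the shared chromosome in these differences was not tested. Atp5k was at -0.13 with the probe used and 0.13 with its other probe. Others at the ends of their complexes were Ndufs4 at -0.07, Uqcrh at 0.14, Uqcr11 at -0.02, Cox5a at 0.20, Atp5s at 0.18, Atp5g2 at 0.16, Atp5g3 at -0.01 and Atp5f1, now Atp5pb, at 0.02. At 1.5-fold 1 gene was higher, Cox7a1, and 3 lower, against 6.92% and 7.83% of all genes.

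With LPS the medians were -0.09 for complex I, -0.10 for complex III, -0.05 for complex IV and -0.10 for complex V, all of which were above 0 with median centring. Ndufa8 was lowest in complex I at -0.66, then Ndufs6 at -0.45 and Ndufb11 at -0.36. Uqcrfs1 at -0.42 and Uqcr11 at -0.31 were lowest in complex III, Atp5j2 at -0.32 and Atp5b at -0.28 in complex V. Ndufs6 and Uqcrfs1 are among the genes on chromosome 13 named above. Among the highest of their complexes were Cox4i2 at 0.40, Cox7a1 at 0.38, Ndufa7 at 0.25, Ndufa12 at 0.23, Uqcrc2 at 0.17 and Atp5g2 at 0.07. Others at the ends of their complexes were Uqcrh at -0.18, Uqcrc1 at 0.15, Uqcrq and Ndufc2 at 0.14 each, Cox7c at -0.20, Cox7a2l at 0.10, Atp5g3 at -0.21, Atp5sl at 0.03 and Atp5h at -0.00. At 1.5-fold 0 genes were higher and 2 lower, against 5.54% and 10.3% of all genes.

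**Figure D5:**
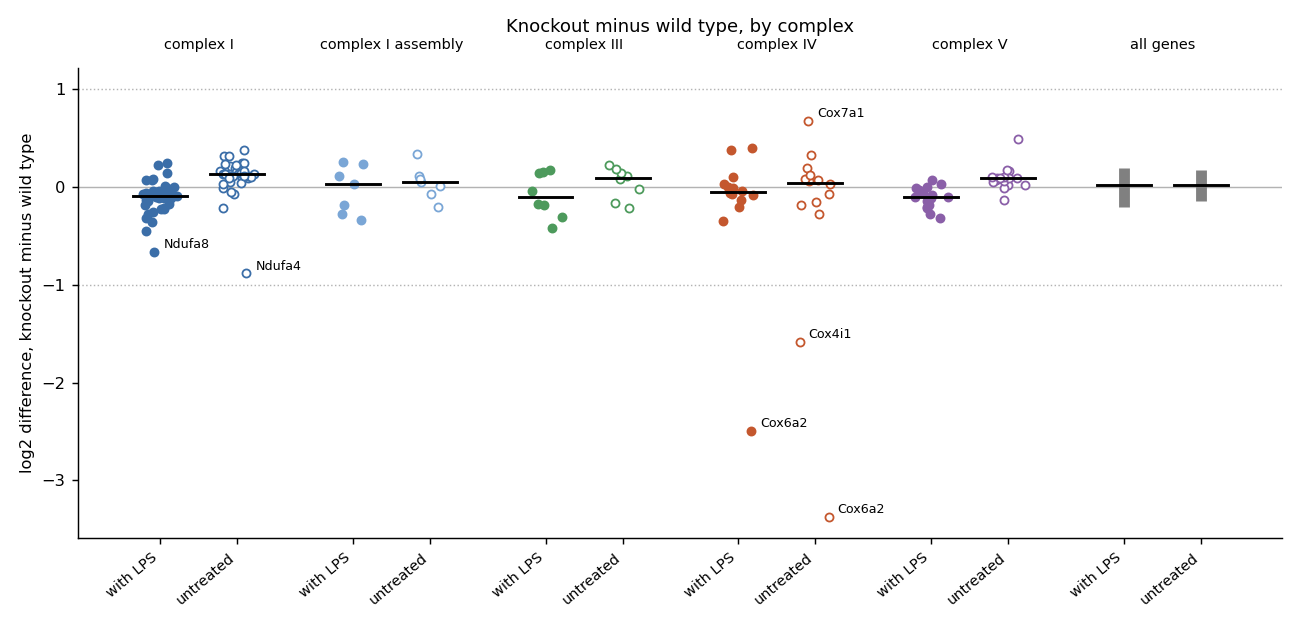
Knockout minus wild type (log2 difference, y axis) for each measured gene with LPS (filled points) and untreated (open points), by complex (x axis), with black bars at medians and grey bars from the lower to the upper quartile of all genes. Dotted lines mark 2-fold; Cox6a2 lies at -2.49 and -3.37, Cox4i1 at -1.58 untreated, and the other genes lie within 2-fold.

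The difference of the LPS responses, knockout minus wild type, asked whether the shift with LPS was larger in knockout. Its median was -0.20, with 70 of 83 genes below 0 (84.3%), against a median of -0.01 over all genes, 50.8% of which were below 0. Of the 56 genes below 0 in both genotypes, 52 were lower still in knockout, against 4116 of 6239 over all genes. At 2-fold 1 gene was called higher, Cox4i1, where 1.63% of all genes were, and 0 lower, where 2.98% were. At 1.5-fold 3 were higher and 1 lower, against 5.51% and 8.46% of all genes. All 17 genes of complex V (median -0.16) and all 20 of the membrane arm of complex I (median -0.26) were below 0, or 11 of 17 (median -0.03) and 17 of 20 (median -0.13) with median centring. The technical SD of a single such difference was 0.151, and 63 of 83 genes lay within 2 SDs of 0, while the 83 values share the same 4 arrays. With median centring the median was -0.07, with 55 of 83 below 0. Relative to all genes it was -0.19 by the 75th percentile, and by construction the same with median and spike-in centring. Quantile scaling gave -0.19 and normexp correction -0.15.

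In complex I the lowest values were those of Ndufa8 at -0.61, Ndufb9 at -0.51, and Ndufb11 and Ndufv3 at -0.44 each, with 0.02 from another Ndufv3 probe. In complex V they were those of Atp5sl at -0.46, Atp5j2 at -0.41 and Atp5b at -0.37, with 0.35 from another Atp5j2 probe and 0.01 and 0.22 from others of Atp5b. Of the 30 genes with several probes above background on all 4 arrays, 13 had probes of opposite sign in this difference, against 7 for LPS in knockout and 6 for LPS in wild type. In complex III Uqcrh was at -0.32, Uqcr11 at -0.29 and Uqcr10 at -0.26, while the core proteins Uqcrc1 and Uqcrc2 were at 0.07 and 0.05. In complex IV Cox7a1 was at -0.30 and Cox5a at -0.26, against 0.88 for Cox6a2 and 0.47 for Cox4i2. Cox7a2l was at -0.23. The highest of complex I besides Ndufa4 were Ndufa12 at 0.03 and Ndufs4 at 0.02. Atp5e was at -0.06 and had the highest value of complex V together with Atp5h at -0.06 and Atp5k at -0.07, whose other probes gave lower values, -0.41 and -0.28 for Atp5h and -0.33 for Atp5k. Uqcrb was at -0.01, with -0.44 and 0.07 from its other probes. Ndufa4 was at 0.70, or 0.36 after subtraction of its neighbours.

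An additive fit with terms for LPS and genotype used all 4 arrays and left 1 residual degree of freedom for each gene, so it draws on the spread of all genes. For the LPS term limma called 3 genes of the set lower, where 10.7% of all genes were called lower, and 0 higher, where 11.2% were. They were Ndufaf7 at -0.88 ± 0.14 (SE, adjusted p = 0.0422 by limma), Ndufaf4 at -0.79 ± 0.12 (adjusted p = 0.0423) and Ndufs7 at -0.76 ± 0.13 (adjusted p = 0.0454), each lower with LPS in both genotypes. Ndufa8 did not pass, at -0.75 ± 0.21 (adjusted p = 0.096 by limma). The number lower depended on the setting, from 3 of 83 in this fit to 21 of 83 with a trended prior. Over all 17358 genes the number lower was 1852 in this fit and 3094 with a trended prior. For the genotype term limma called 0 genes of the set and 0% of all genes in either direction. At an unadjusted p under 0.05 it gave 1 higher and 1 lower of the 83 genes. The share of all genes at that threshold was not counted, so nothing is drawn from these counts. With normexp correction or a trended prior 1 gene of the set was lower, against 43 and 54 of 17358 over all genes. The residual of this fit is the difference of the LPS responses, so an LPS response that differs by genotype counts as noise. Ndufa8, whose LPS responses differed by -0.61, had a residual SD of 0.31, and Cox4i1 had 0.62. The fit holds no spread between repeat cultures, and the cultures of the 4 arrays are not said to be separate.

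The other genes of the pathway were taken from lists chosen with earlier results known. Complex II, succinate dehydrogenase, which feeds electrons to ubiquinone, had all 4 genes below 0 with LPS, with medians of -0.65 in knockout and -0.47 in wild type and 0 called. Sdhb, its iron-sulfur subunit, gave -0.62 and -0.49. Of the mitochondrially encoded subunits 0 of 10 were called in knockout, and 1 of 11 in wild type, ND2 of complex I, which gave -0.42 in knockout and -1.05 in wild type. Over all genes 12.4% were called lower and 11.1% higher in knockout, and 8.39% lower and 9.97% higher in wild type. COX2 had no value on the untreated knockout array, where its spot was marked as an outlier. Cycs, cytochrome c, gave 0.34 and 0.28, and Atpif1, the inhibitor of the ATP synthase, -0.31 and -0.04.

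AA467197, the paralog of Ndufa4 known in human as C15orf48 and induced in inflammation, was below background untreated in both genotypes. With LPS its level was -1.59 in knockout, against 0.77 in wild type, a difference of -2.36 (5.14-fold lower in knockout). The LPS signal was at least 9.29-fold higher in knockout and at least 41.0-fold higher in wild type. Thus both genotypes gained signal of this gene with LPS, and the knockout array had less of it.

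Assembly factors of other complexes went both ways. Of 22 factors for complex IV, 1 was called higher and 2 lower in knockout, and 1 higher and 1 lower in wild type. Over all genes 11.1% were called higher and 12.4% lower in knockout, and 9.97% higher and 8.39% lower in wild type. Calls among the factors are thus given as values and not as a trait of the lists. Cmc2 was lower in both, at -1.34 and -1.33, and Cox20, which assists the COX2 subunit, gave -1.37 and -0.64. Sco2, a copper chaperone, gave 1.22 and 0.70, and Coa5 0.79 and 1.02. For complex III Bcs1l, which inserts the Rieske protein, gave -1.07 and -0.97, and Uqcc2 -1.02 and -0.43. Ttc19 was called higher in wild type at 1.15 and was just short of 2-fold in knockout. Of the coenzyme Q genes Coq10b was higher in both, at 2.31 and 1.68, and Coq10a gave -1.07 and -0.56. Of 8 further complex I factors and 3 complex V factors 0 were called in either genotype.

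Among 12 measured regulators of mitochondrial biogenesis, 2 were called lower with LPS in each genotype and 0 higher, where 12.4% of all genes were called lower in knockout and 8.39% in wild type. Ppargc1b, the coactivator PGC-1 beta, had levels of -0.46 with LPS and 2.16 untreated in knockout, and 0.57 with LPS and 2.10 untreated in wild type. It differed by -2.62 in knockout and -1.54 in wild type, differed between knockout and wild type with LPS by -1.03, and had a difference of responses of -1.08. Gabpb2, a subunit of GABP, gave -1.24 and -1.37. Nrf1 gave -0.84 and -0.88, and Gabpa gave -0.98 and -0.61. Tfam, which packages mitochondrial DNA and drives its transcription, gave -0.19 and -0.32, Yy1 0.23 and 0.20, and Ppargc1a was below background on all 4 arrays. In a bulk RNA sample fewer cells in a given state and less RNA per cell cannot be told apart.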

How the data were processed

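RNA of 4 RAW264.7 groups, 1 array each, was measured on Agilent one-colour arrays. Signals in the deposited scanner files are intensity values, linear and background-subtracted. Feature Extraction was version 10.7.1.1 per the file headers and 9.5.1.1 per the submitters' processing notes. The deposited flags, a unit of the type other, mark spots well above background, saturated or outlying. The deposited series table holds intensity, which matched quantile-normalized scanner signals, to 0.01 on the log2 scale, for 56544 to 56578 of the 56605 probes.

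Outlier spots were left out, spots of a probe averaged, and log2 signal taken minus the 75th percentile of the array. Each gene had 1 probe, preferring a value on all 4 arrays, then a signal above background, then the highest mean. A call needed 2-fold; signals below background were raised to a bound, the weakest above-background signal of their array, and such folds are written "at least". Depth has no counterpart on arrays; their number limits the precision. The labels do not say that cultures are separate. Member genes and lists were chosen with earlier results of these data known. Named genes are those called, the 3 highest and 3 lowest of each complex and comparison, isoforms, core subunits and fixed genes of the added lists; Ndufb3, Ndufv2, Nrf1, Gabpa, Yy1 and other genes given only for context were picked after their values were seen. One core subunit is not reported here.

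The additive fit used limma 3.58.1 in R 4.3.3 (lmFit, eBayes, Benjamini-Hochberg) on 17358 genes, each above background on 2 or more arrays. Values and plots came from Python 3.11.15, numpy 2.4.6, pandas 2.3.3 and matplotlib 3.10.9. Tested on simulated data, the 2-fold rule for LPS in wild type recovered 0.0% of 200 changes of 0.5 log2 among 17202 genes. It recovered 95.0% of 200 changes of 1.5 log2 and 92.5% of 3 log2. The fit's LPS term recovered 29.5% of changes of 0.5 log2 and 100% of 1 log2 among 17358, and called 10 unchanged genes at 1 log2. The noise was the technical SD for the rule and an SD of 0.145 for every gene in the fit. No simulated gene had an LPS response that differed by genotype, so recovery in the real data was not measured. Probe coordinates are mm9, from the files. Alternatives were normexp (offset 50), quantile, median and spike-in scaling (7 probes), strict and no filters, the mean of probes, the series table, a 1.5-fold threshold, a trended prior, and, chosen after seeing the data, subtraction of neighbouring spots and leaving out Cox4i1 and Ndufa4.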

Additional observations from a re-analysis of the deposited data

Results flagged for a closer look

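With the scaling used for the levels, the LPS differences of 5 genes lay on opposite sides of 0 in the 2 genotypes. Each did so by more than its technical SD, with 1 array behind each group. These signs depend on the scaling. With spike-in centring or quantile scaling all 20 membrane arm genes and all 17 of complex V were below 0 in both genotypes. Ndufa13, Ndufb2 and Atp5b are among them. In complex IV, which holds Cox7a2l and Cox4i2, spike-in centring put 13 of 14 genes below 0 in wild type and 10 of 14 in knockout. The difference between the genotypes was not tested. Ndufa13, a membrane arm subunit of complex I, differed by -0.20 in knockout and 0.12 in wild type, a difference of -0.32. Ndufb2 of the same arm gave -0.19 and 0.08, a difference of -0.27. Cox7a2l gave -0.15 and 0.08, a difference of -0.23, and Atp5b -0.22 and 0.15, a difference of -0.37. Cox4i2 went the other way, at 0.24 and -0.23, a difference of 0.47. A second probe of Ndufb2 gave -0.29 and 0.11, while other probes of Atp5b gave values above 0 in both genotypes.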

How the results depend on the processing

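No paired analysis was possible because each group has 1 array, and no array could be left out because the additive fit would keep no residual degree of freedom. No value reversed a call under the alternatives. The LPS median in knockout was -0.51 with quantile scaling, -0.52 with the series table, -0.54 with spike-in and -0.16 with median centring, and in wild type -0.34, -0.33 and -0.34 with the first 3. The genotype median with LPS was 0.13 with median centring. With LPS in knockout the genes lower numbered 2 with normexp, 4 with quantile scaling and the series table, 9 with spike-in, 0 with median centring, 15 at 1.5-fold and 2 after subtraction of neighbours. Those higher numbered 2 with median centring, no filter or neighbours subtracted, 4 at 1.5-fold and 0 without Cox4i1 and Ndufa4. With LPS in wild type 1 was lower with spike-in centring and 3 at 1.5-fold. Without LPS 1 was higher in knockout at 1.5-fold, and 1 was lower without Cox4i1 and Ndufa4. With LPS 2 were lower in knockout with the mean of probes or at 1.5-fold. For the difference of responses 2 were higher with median centring or no filter, 3 at 1.5-fold and 0 without Cox4i1 and Ndufa4, and 1 was lower with the mean of probes or at 1.5-fold. Shares of all genes called at 2-fold were not counted under these alternatives. The LPS term of the fit gave 16 lower with normexp, 6 with quantile scaling, 11 with spike-in centring and 21 with a trended prior. Over all 17358 genes the numbers lower were 3137, 2015, 3153 and 3094 in the same order. The strict filter gave 10 lower and 1 higher, against 2597 and 2617 of 15512 over all genes. The genotype term gave 1 lower with normexp or a trended prior, where 43 and 54 of all 17358 genes were lower. Causes of these shifts were not tested beyond the construction of each setting. Precision is limited by the 4 arrays.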
